A study of Mus musculus with 2 samples.

Results

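Neuropeptide precursors and granins are the cargo of dense-core vesicles, and 35 genes of this kind were examined here in the mouse central nervous system at the end of gestation. They comprised 27 genes that encode classical neuropeptide precursors and 8 genes for granins and for the chaperones and inhibitors that travel with them. Genes were taken by symbol from a list, with no cutoff on a measured value, and the list was drawn up with earlier results of these data known. By gene identifier, 34 of the 35 symbols were found among the 43346 genes of both deposited gene tables. Kiss1 was not found in this way, and its values are the sum of its transcripts, matched by transcript identifier. The study sequenced polyadenylated RNA over 200 nt from C57BL/6J embryos of day 18 as read pairs. Males and females of a litter were pooled, the labels name no treatment, and the 2 libraries form 1 group, numbered biological replicates 1 and 2. The number of embryos behind each library is not given in the labels, so the difference between the libraries measures only the spread between these samples. With 1 group of 2 libraries there is nothing to test, and all values below are descriptions.

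Neuropeptides are made as long precursors. In the secretory pathway the precursor is cut at pairs of basic residues by prohormone convertases, trimmed by carboxypeptidases and often amidated at its end before release. Granins are acidic proteins that help to form and load the dense-core granule, and several are themselves cut into peptides. In the brain the peptides modulate fast transmission, and in the hypothalamus some of them control the pituitary, feeding, water balance and arousal.

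Gene-assigned fragments numbered 93979836 in replicate 1 and 137012773 in replicate 2. All 6 markers of neurons were detected, with Tubb3 (2731 and 2430 TPM in replicates 1 and 2), Stmn2 (1245 and 1252 TPM) and Map2 (371 and 373 TPM) as the highest and Syt1 (94.6 and 89.7 TPM) as the lowest. TPM, the transcript's share of all transcripts, is corrected for gene length and can be compared between genes. Detection meant that each library reached 1 TPM. Of the 35 members 32 were detected, against a background of 34.2% of all genes in the tables. All 8 granin-group genes and 24 of the 27 peptide genes passed, and Agrp, Vip and Kiss1 did not. On the deposited mm9 values, an RPKM of 1 in both columns was reached by 18 members and by 28.3% of the genes of that table. The same cutoff is not the same level there, since the mm10 FPKM of a member was 6.10 times its mm9 RPKM in the median (3.73 to 12.1 times over 34 members). In these bulk samples fewer cells of a type and less RNA per cell cannot be told apart.

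The members spanned more than 2 orders of magnitude. A mean of 100 TPM or more was reached by 5 members, 12 lay from 10 to under 100, 15 from 1 to under 10, and 3 below 1. Summed over the 27 peptide genes, the level was 1066 TPM in replicate 1 and 858 TPM in replicate 2. Sst and Npy together made up 64.2% of that sum in replicate 1 and 55.7% in replicate 2. The 6 highest peptide genes made up 86.9% and 83.2%. Summed over the 8 granin-group genes, the level was 842 and 838 TPM. In the order of mean levels, 15 of the 34 pairs of neighbours had overlapping library values, so their order is not resolved by these libraries.

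**Figure D1:**
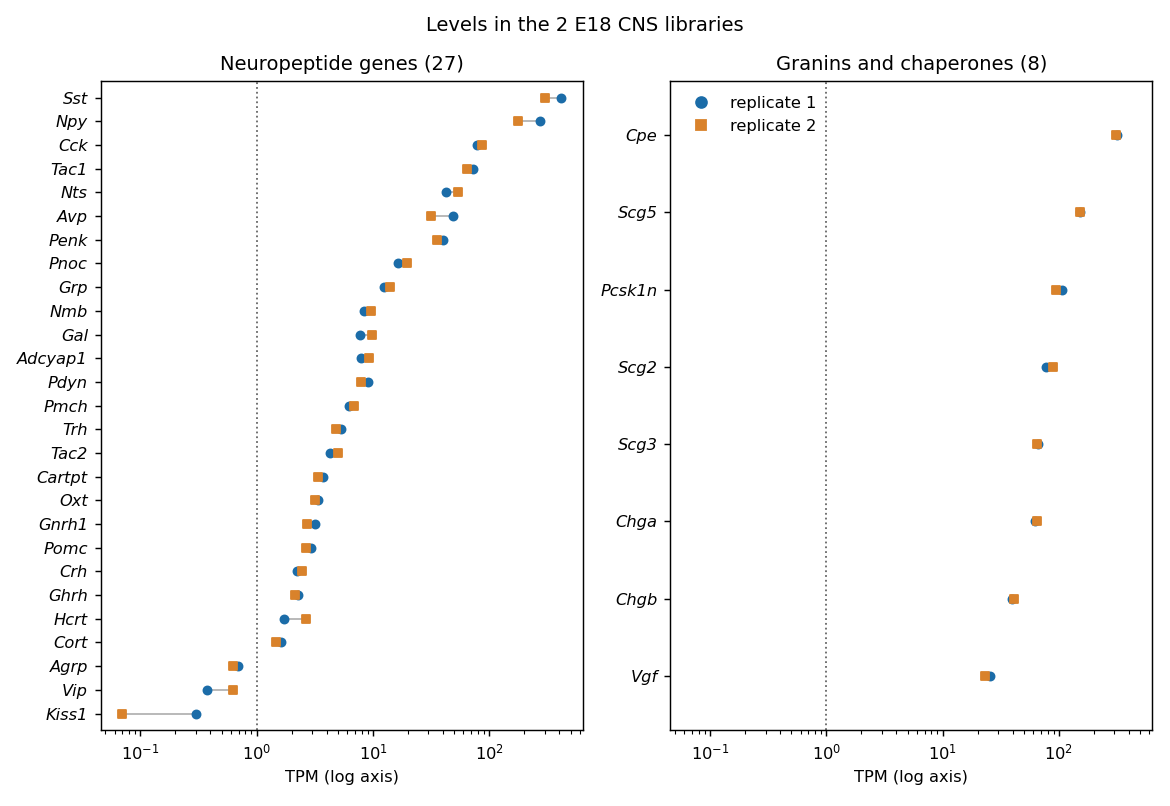
Level of each member in TPM (log axis) in replicate 1 (circles) and replicate 2 (squares), ordered by the mean, for 27 peptide genes (left) and 8 granin-group genes (right); grey lines join the libraries and the dotted line marks 1 TPM. The peptide genes run from Sst at 413 and 303 TPM to Kiss1 at 0.3 and 0.07 TPM, whereas the granin-group genes all lie above 20 TPM.

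Sst encodes somatostatin, an inhibitory peptide of cortical and hypothalamic neurons, on chr16:23889573-23890958 of GRCm38. It stood at 413 TPM in replicate 1 and 303 TPM in replicate 2, a mean of 358 ± 77.7 (SD, n = 2). It had the highest mean of the members, but in replicate 2 Cpe (307 TPM) stood above it, so the order of the pair is not resolved. Replicate 2 was the lower library. After scaling of the counts to effective library sizes with TMM, a factor that sets most genes to a ratio near 1, the log2 ratio of replicate 2 to replicate 1 was -0.43, with a 95% interval of -0.47 to -0.39 that covers counting error only. Cort encodes cortistatin, a close relative of somatostatin. It stood at 1.62 and 1.46 TPM, so Sst exceeded it 255-fold and 208-fold within the libraries. The stretch that encodes the 14-residue ring peptide of Sst can be set beside the Cort stretch at the same distance from the shared core. The Cort stretch was placed by this alignment and need not match the ends of its own peptide. They are printed with the bases that differ in capitals, and 31 of 42 bases are the same:
Sst: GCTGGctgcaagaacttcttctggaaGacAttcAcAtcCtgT
Cort: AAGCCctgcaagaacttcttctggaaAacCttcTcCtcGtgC
Within both lie the codons of the receptor-binding core, which occur in frame in 0.121% of 21562 coding genes. Among somatostatin receptors, Sstr1 stood at 25.4 and 23.5 TPM and Sstr2 at 23.8 and 20.6 TPM. Sstr4 was at 3.21 and 3.24 TPM, while Sstr3 (0.98 and 0.84 TPM) and Sstr5 (0.7 and 0.64 TPM) were not detected by the threshold used.

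Npy encodes neuropeptide Y, which is made by cortical and striatal interneurons and by feeding neurons of the hypothalamus. It stood at 271 and 175 TPM, a mean of 223 ± 68.0 (SD, n = 2), and was the member with the lowest ratio, a log2 value of -0.61 (interval -0.66 to -0.56). Its receptors Npy1r (12.5 and 9.39 TPM) and Npy2r (3.15 and 2.96 TPM) stood above Npy5r (1.43 and 1.38 TPM). Agrp encodes the melanocortin antagonist that adult feeding neurons make together with neuropeptide Y. It reached only 0.69 and 0.62 TPM, from 19 and 26 fragments, and its GENCODE M21 locus is overlapped by other genes. Npy was 393-fold and 283-fold above Agrp within the libraries.

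Cck, which encodes cholecystokinin, an abundant peptide of cortical neurons, stood at 78.6 and 85.8 TPM. Its brain receptor Cckbr was at 5.51 and 4.92 TPM, and Cckar, the type best known from the gut, at 0.44 and 0.47 TPM. Nts encodes neurotensin, a modulator of dopamine systems, and stood at 42.6 and 53.5 TPM. Replicate 2 was the higher library for Nts, with a log2 ratio of 0.34 (interval 0.27 to 0.41). The neurotensin receptors Ntsr1 and Ntsr2 were at 13.1 and 9.99 TPM and at 6.69 and 6.01 TPM.

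Tachykinin genes encode substance P and the neurokinins, excitatory peptides of striatal, hypothalamic and sensory neurons. Tac1 (chr6:7554879-7565834) stood at 72.2 and 64.7 TPM and Tac2 (chr10:127724478-127731768) at 4.27 and 5.01 TPM. Tac1 was 16.9-fold and 12.9-fold above Tac2. The codons of the shared tachykinin end, with the glycine used for amidation, occurred in frame in 0.0417% of coding genes, 2 times in Tac1 and in 1 copy in Tac2. They are shown in capitals because they are the part of the message on which receptor binding rests, with 6 coding bases on either side:
Tac1 copy 1: cagcagTTCTTTGGATTAATGGGCaagcgg
Tac1 copy 2: gattccTTTGTTGGACTAATGGGCaaaaga
Tac2 copy 1: gacttcTTTGTGGGACTTATGGGCaagagg
Each core is followed by a pair of codons for basic residues, where the precursor is cut. The receptors Tacr1 (1.83 and 1.57 TPM) and Tacr3 (1.97 and 2.41 TPM) were both low but detected.

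The opioid family was detected in full. Penk, which encodes the enkephalins of striatal neurons, stood at 40.1 and 35.2 TPM. Pnoc, which encodes nociceptin, was at 16.4 and 19.8 TPM, and Pdyn, which encodes the dynorphins, at 9.01 and 7.95 TPM. Pomc, the precursor of endorphin and the melanocortins, was the lowest of the family at 2.91 and 2.67 TPM. Penk exceeded Pdyn 4.45-fold and 4.43-fold, close to the same ratio in both libraries. The codons of the opioid core were present in frame in 7 copies in Penk, 3 in Pdyn and 1 in Pomc, and in 0.329% of coding genes. Pnoc instead holds 1 copy of a related core with another first residue. The following copies show the core in capitals behind the basic codons of the cleavage site:
Penk copy 1: aagaagTACGGAGGCTTCatgaaa
Penk copy 6: aagaggTATGGGGGCTTCctgaag
Pdyn copy 1: aaacgcTATGGCGGCTTTttgcgc
Pomc copy 1: aagcgtTACGGTGGCTTCatgacc
Pnoc copy 1: aaaaggTTTGGGGGCTTCaccggg
All 11 opioid copies and the nociceptin copy had a dibasic pair directly in front. Across receptors, the nociceptin receptor Oprl1 was the highest of all 42 peptide receptors listed, at 66.3 and 66.7 TPM. The mu, kappa and delta receptors Oprm1 (2.71 and 1.87 TPM), Oprk1 (2.26 and 2.56 TPM) and Oprd1 (1.11 and 0.92 TPM) were far lower. The melanocortin receptor Mc4r stood at 6.09 and 4.72 TPM, and Mc3r at 0.43 and 0.48 TPM.

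Avp and Oxt encode vasopressin and oxytocin, the hormones of the posterior pituitary, and lie next to each other on chromosome 2 (Avp 130580620 to 130582554, Oxt 130576173 to 130577054). Avp stood at 48.4 and 31.8 TPM, a mean of 40.1 ± 11.7 (SD, n = 2), with a log2 ratio of -0.59 (interval -0.71 to -0.46). Oxt stood at 3.35 and 3.14 TPM, from 67 and 96 fragments. Avp was thus 14.5-fold and 10.1-fold above its neighbour. The coding bases of the hormones themselves differ at 5 of 27 positions, shown in capitals:
Avp: tgctacTtccagaactgcccAAGAggc
Oxt: tgctacAtccagaactgcccCCTGggc
Counted from 1 at the first base shown, with the Avp base first, the differences are T7A, A21C, A22C, G23T and A24G. Of their receptors, Oxtr (1.96 and 2.02 TPM) and Avpr1a (1.53 and 1.35 TPM) were detected. The pituitary type Avpr1b was listed at 0 and 0.01 TPM, and the kidney type Avpr2 at 0 in both libraries.

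Releasing hormones of the hypothalamus were all detected at low levels. Trh, for thyrotropin-releasing hormone, stood at 5.26 and 4.8 TPM, and its coding sequence holds 5 amidation signals, a glycine codon in front of a basic pair, more than that of any other member. Gnrh1, made by the few neurons that govern reproduction, was at 3.15 and 2.71 TPM. Crh, the stress hormone gene, stood at 2.22 and 2.44 TPM and Ghrh, for growth hormone-releasing hormone, at 2.27 and 2.15 TPM. Counts were small here, from 41 fragments for Ghrh in replicate 1 to 514 for Trh in replicate 2, and for these 4 genes the counting interval of the ratio included 0. The receptor Crhr1, which cortex also uses, stood at 18.5 and 15.2 TPM, and Crhr2 at 2.03 and 1.85 TPM. Trhr was at 1.93 and 1.69 TPM and Trhr2 at 0.54 and 0.5 TPM. Gnrhr (0.01 TPM in both) and Ghrhr (0.01 and 0 TPM), receptors of the anterior pituitary, were near 0.

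Pmch and Hcrt mark neurons of the lateral hypothalamus and encode melanin-concentrating hormone and the orexins. Pmch stood at 6.27 and 6.81 TPM. Hcrt was at 1.7 and 2.65 TPM, from 39 and 93 fragments, with a log2 ratio of 0.65 and an interval of 0.11 to 1.24. Cartpt, whose CART peptides reduce feeding, was at 3.69 and 3.34 TPM. Their receptors Mchr1 (4.33 and 4.98 TPM), Hcrtr1 (5.54 and 6.32 TPM) and Hcrtr2 (2.79 and 2.92 TPM) were all detected.

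Gal, which encodes galanin, stood at 7.75 and 9.74 TPM, while its receptors Galr1 (0.7 and 0.78 TPM), Galr2 (0.2 and 0.17 TPM) and Galr3 (0.29 and 0.17 TPM, summed over transcripts) were all below the threshold. The bombesin-like genes Grp and Nmb stood at 12.5 and 14.1 TPM and at 8.38 and 9.57 TPM. For this pair the receptors differed in order, since Nmbr was at 3.27 and 3.16 TPM and Grpr at 0.18 and 0.15 TPM. Adcyap1, the PACAP gene, was at 7.96 and 9.31 TPM, and its receptor Adcyap1r1, the second highest of the 42, at 55.0 and 53.7 TPM. Vip, a marker of a class of cortical interneurons that matures after birth, was listed at 0.37 and 0.62 TPM, from 29 and 74 fragments, with a log2 ratio of 0.74 (interval 0.12 to 1.43). The receptors Vipr1 (0.45 and 0.4 TPM) and Vipr2 (1.22 and 1.36 TPM) were low. Kiss1, the kisspeptin gene, reached 0.3 and 0.07 TPM from 5.31 and 3 estimated fragments, and Kiss1r 3.26 and 2.81 TPM.

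Granins and their partners were high and differed little between the libraries. Cpe, carboxypeptidase E, which trims basic residues from cut peptides, stood at 316 and 307 TPM, second to Sst in replicate 1 and above it in replicate 2. Scg5 encodes the chaperone 7B2 that the convertase gene Pcsk2 needs, and stood at 151 and 153 TPM, 6.58-fold and 6.61-fold above Pcsk2 itself. Pcsk1n encodes proSAAS, an inhibitor of the convertase encoded by Pcsk1, and was at 107 and 95.05 TPM. It exceeded Pcsk1 48.0-fold and 40.8-fold.

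Among the granins proper, Scg2 (secretogranin II) stood at 76.8 and 88.3 TPM and Scg3 (secretogranin III, which anchors other granins to the vesicle membrane) at 65.6 and 65.4 TPM. The chromogranin genes Chga and Chgb were at 61.8 and 64.8 TPM and at 39.3 and 41.2 TPM. Chga was 1.58-fold above Chgb in each library. Vgf, a growth factor-inducible precursor, was the lowest of the group at 25.4 and 23.2 TPM. The 8 log2 ratios of this group ran from -0.16 for Pcsk1n to 0.20 for Scg2. Their median absolute value was 0.08, beside 0.16 for the 26 peptide genes matched by identifier. Over all 18677 genes that passed the filter on low counts it was 0.12. These sets are not matched for counts. Each of the 8 had at least 3272 fragments in each library, while Agrp among the peptide genes had 19 in replicate 1.

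The cyclic AMP response element, TGACGTCA, was looked for in promoter sequences, because granin and peptide genes are known targets of that pathway. RefSeq starts were present for 27 members, and within 250 bases before to 50 bases after a start the motif, which reads the same on both strands, occurred in 4 of them. By gene, it occurred in 2.03% of all 27025 genes of the table, and by promoter in 1.79% of 32851. The 4 matches are printed from GRCm38.p6 in the direction of transcription, with the motif in capitals:
Sst, chr16:23890874-23890903: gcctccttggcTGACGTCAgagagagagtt
Scg2, chr1:79440076-79440105: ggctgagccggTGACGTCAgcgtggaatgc
Chgb, chr2:132781559-132781588: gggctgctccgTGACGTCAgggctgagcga
Cartpt, chr13:99900777-99900806: ccggcgggcatTGACGTCAaacggcagcgg
The first base of the motif lay at -48 in Sst, -68 in Scg2, -72 in Chgb and -112 in Cartpt relative to the RefSeq start. The levels of these 4 genes ran from 3.34 TPM for Cartpt in replicate 2 to 413 TPM for Sst in replicate 1. TATAAA, searched on both strands, occurred in 7 of the 27 members, in 15.7% of all genes and in 13.6% of all promoters.

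Coding sequences of the members were also searched for dibasic pairs and amidation signals. Every member held at least 1 dibasic pair, as did 95.3% of all coding genes, so holding a pair does not set the members apart. The median density was 2.31 pairs per 100 codons in the peptide genes, 1.94 in the granin group and 1.40 over all coding genes. The median coding length was 134 codons in the peptide genes and 396 over all coding genes. An amidation signal was found in 17 of the 27 peptide genes and in 35.1% of all coding genes. Only the longest coding sequence of each gene was read, so a signal held only by another form was missed. Cck, for which 134 codons were read, counts here as a gene without a signal. These counts describe the sequences and say nothing on which sites are used.

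The enzymes that act on these precursors were all detected, 10 of 10. Pam, the amidating enzyme, stood at 36 and 33.8 TPM, Pcsk2 at 22.9 and 23.1 TPM and Pcsk7 at 23.1 and 21.5 TPM. Pcsk1 was the lowest at 2.22 and 2.33 TPM, so that Pcsk2 exceeded it 10.3-fold and 9.93-fold. All 12 genes for vesicle assembly and release were detected as well. The vesicle calcium sensor-like gene Syt4 (95.5 and 94.4 TPM), the priming factor Cadps (73.5 and 83.3 TPM) and the vesicle membrane protein gene Ptprn2 (60.5 and 52.7 TPM) led, and Rab27b (4.03 and 4.84 TPM) was the lowest. Of the 42 receptor genes 27 were detected. No gene of these 3 lists at a mean TPM of 1 or more was 2-fold apart between the libraries.

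**Figure D2:**
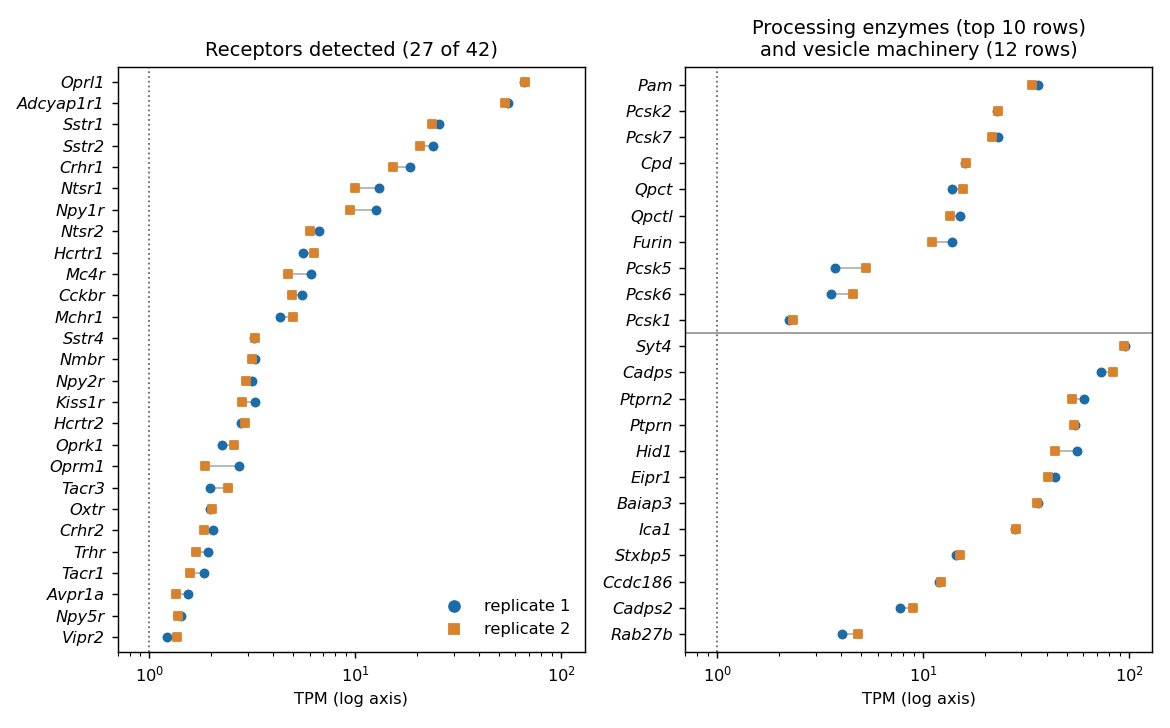
TPM (log axis) of the 27 detected peptide receptors (left) and of 10 processing enzymes above 12 vesicle genes (right) in replicate 1 (circles) and replicate 2 (squares), with a dotted line at 1 TPM. Oprl1 and Adcyap1r1 stand above the other receptors, and Pcsk1 is the lowest processing enzyme.

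The difference between the libraries was described member by member, with 2-fold as the size that counts as a call. None of the 34 members matched by identifier was 2-fold apart, against 3.58% of the 18677 genes that passed the filter. Of those genes 2.64% were at least 2-fold higher and 0.937% at least 2-fold lower in replicate 2. The filter required enough counts in both libraries, so genes such as Hand2 (171 and 6 fragments) are outside these shares. Of the 34, 17 had a log2 ratio above 0 and 17 below, with a median of -0.02 beside 0.00 for all genes. The counting interval lay wholly above 0 for 11 members and wholly below 0 for 9. The share of all genes with such an interval was not counted, so these counts cannot be read as a trait of the members. Beyond 1.3-fold, a bound chosen after values were seen, lay 5 members, or 14.7%, near the 16.3% of all genes. All 5 were peptide genes, 19.2% of the 26 matched by identifier. They were Npy, Avp and Sst, lower in replicate 2, and Hcrt and Vip, higher in replicate 2. On log2(TPM + 1), which shrinks the ratios of low genes, Hcrt was at 0.43, and Vip at 0.24 came inside the bound. Inside the bound on the main scale, the counting interval lay above 0 for Nts and Gal (log2 ratio 0.34 each), Pnoc (0.28), Nmb (0.25), Adcyap1 (0.23), Scg2 (0.20), Cck (0.14), Chga (0.08) and Chgb (0.07). It lay below 0 for Tac1 (-0.17), Pcsk1n (-0.16), Pdyn (-0.12), Vgf (-0.12), Penk (-0.10) and Cpe (-0.03). With library totals in place of TMM, Cpe turned to 0.02.

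**Figure D3:**
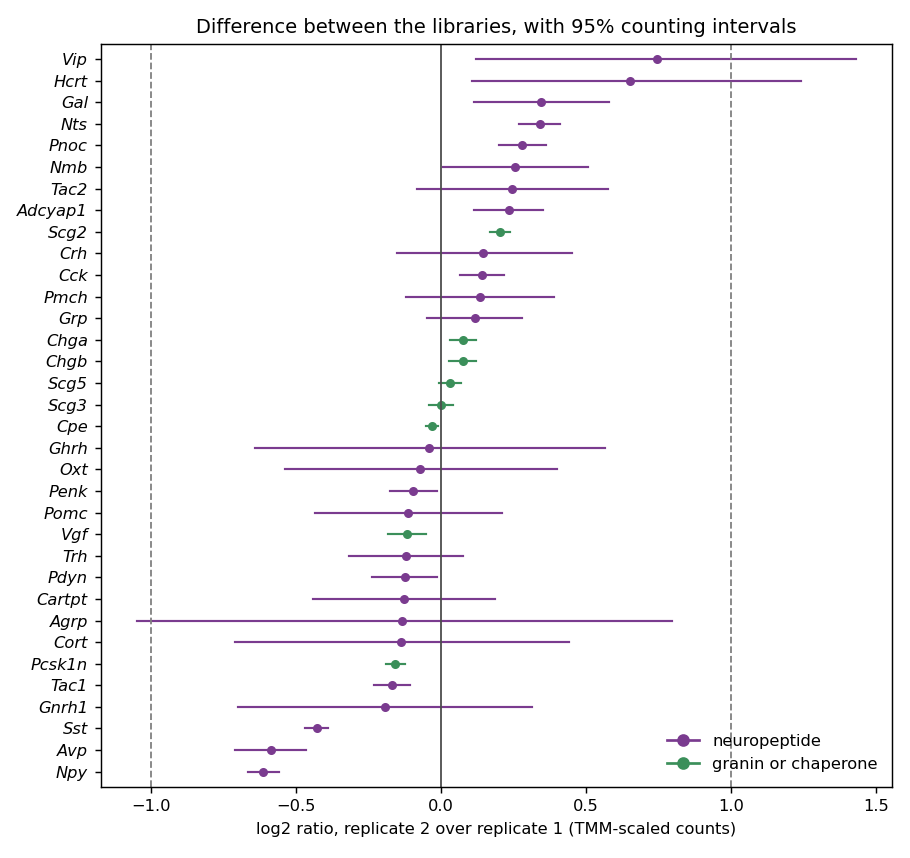
Log2 ratio of replicate 2 to replicate 1 for 34 members, from TMM-scaled counts, with 95% intervals for counting error only; dashed lines mark 2-fold. Npy, Avp and Sst lie at the bottom at -0.61, -0.59 and -0.43, and no point passes a dashed line.

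Marker lists of the regions and tissues that could share a dissection moved between the libraries too. All 13 interneuron genes were lower in replicate 2, with a summed level of 544 against 410 TPM. Gad1 (172 and 132 TPM), Dlx1 (91.8 and 72.5 TPM) and Slc32a1 (75.2 and 59.2 TPM) were the highest and Sox6 (5.81 and 5.12 TPM) the lowest. All 12 striatal genes were lower in TPM as well, from 535 to 401 TPM in sum. For Rasgrp2, Foxp2 and Ebf1 of that list, the counting interval of the scaled ratio included 0. Rasgrp2 (148 and 142 TPM), Foxp1 (84.8 and 59.3 TPM) and Bcl11b (69.6 and 39.6 TPM) led that list, and Drd1 (5.41 and 3.77 TPM) was its lowest. Of 16 hypothalamic genes 9 were detected and 10 were lower in replicate 2, with sums of 214 and 194 TPM. Its highest genes were Arnt2 (111 and 96.8 TPM), Lhx9 (19.6 and 26.7 TPM) and Pou3f2 (26.5 and 19.8 TPM) and its lowest was Rax (0.26 and 0.24 TPM). The part of these lists in the lower Sst, Npy and Avp levels of replicate 2 was not tested.

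Other tissues stood higher in replicate 2. The 8 skeletal muscle genes summed to 15.1 and 549 TPM, led by Acta1 (10.2 and 167 TPM), Mylpf (1.4 and 166 TPM) and Ckm (0.23 and 94.4 TPM), and all 8 were at least 2-fold apart, Actn3 least at a log2 ratio of 1.03. The 12 sensory ganglion genes summed to 27.02 and 89.0 TPM, with Prph at 5.56 and 42.5 TPM, Scn9a at 10.7 and 12.3 TPM, Calca at 2.59 and 10.3 TPM and Mrgprd at 0 and 0.16 TPM. Besides Prph and Calca, the ganglion genes at least 2-fold higher in replicate 2 included Isl2, Avil, Scn10a, Tlx3 and P2rx3. The 7 choroid plexus genes summed to 454 and 1437 TPM, of which Ttr gave 427 and 1389 TPM. Folr1 (5.12 and 14.9 TPM) was the other choroid gene at least 2-fold apart, Otx2 stood at 10.7 and 12.5 TPM and Kl, the lowest, at 0.46 and 0.43 TPM. In the spinal dorsal horn list, 7 of 8 genes were higher in replicate 2 and 1 was detected, with sums of 4.76 and 9.2 TPM. Tlx3 (1.03 and 3.39 TPM) and Prrxl1 (0.4 and 1.68 TPM) were at least 2-fold higher and Gbx1 (1.57 and 0.75 TPM) at least 2-fold lower. After scaling, Pax2 (5.19-fold) and Lbx1 (2.73-fold) were also at least 2-fold higher in replicate 2. Tlx1 (0.11 and 0.2 TPM) was the lowest. The part of these tissues in the higher Nts, Gal, Hcrt and Vip levels was not tested.

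Tissues with peptide hormones of their own were checked in the same way. In the anterior pituitary list, Pitx1 (0.42 and 0.48 TPM) and Cga (0 and 0.77 TPM) stayed below the threshold, and the hormone genes Gh, Prl and Fshb were listed at 0 in both libraries. The 8 sympathoadrenal genes summed to 16.4 and 13.3 TPM, led by Th (9.96 and 8.2 TPM), Slc6a2 (1.49 and 1.12 TPM) and Pnmt (1.23 and 1.27 TPM), with Slc18a1 (0.15 and 0.17 TPM) the lowest.

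**Figure D4:**
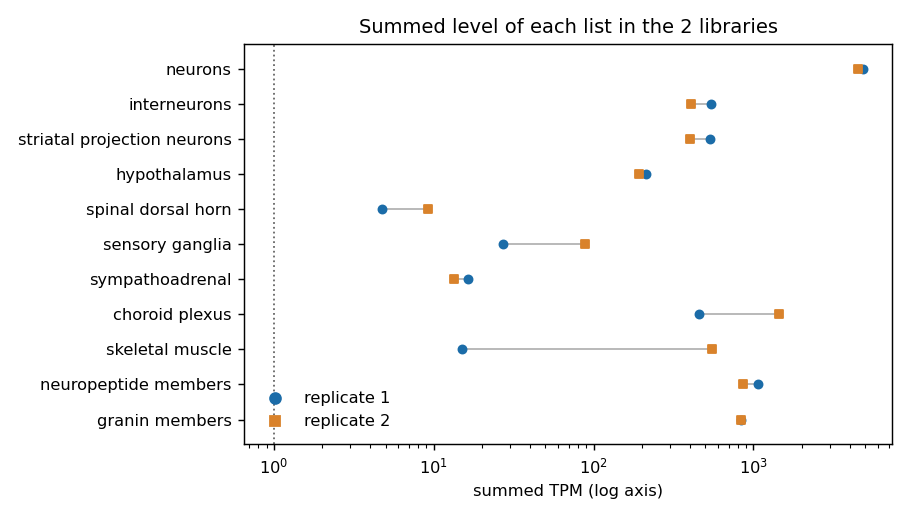
Summed TPM (log axis) of 9 marker lists and of the members in replicate 1 (circles) and replicate 2 (squares). Skeletal muscle has the widest gap, 15.1 against 549 TPM, while the granin group sums to 842 and 838 TPM.

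Splicing of the precursors decides in some genes which peptides can be made. A junction file on the older build mm9 gives reads for 2 replicates, called the first and second column here. The labels do not tie these columns to the libraries above, and whether they follow the same order was not tested. Competing junctions with at least 20 reads in each column were present in 28 members. In 8 of them both forms took 5% to 95% of the reads in each column, against 57.9% of the 12423 genes for which this could be asked. These 8 were Adcyap1, Cartpt, Cck, Ghrh, Nmb, Pnoc, Scg3 and Tac1. Without the first column the count was 13, and without the second it was 10. All intervals given for shares are exact Clopper-Pearson intervals at 95% and cover counting error only.

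The widest-known case is Tac1, in which an exon of 45 nt (exon 4) and an exon of 54 nt (exon 6) can each be left out. Exon 4 was included in 26.4% of junction reads in the first column (interval 22.8 to 30.2) and 26.9% in the second (23.8 to 30.2). This rests on 150 and 204 reads for inclusion, the mean of the junctions on its flanks, against 419 and 554 reads that skip it. Exon 6 was included in 98.4% and 98.1%, so most Tac1 messages lacked exon 4 and kept exon 6, the form known as gamma. Exon 6, shown here in capitals with 18 bases of the adjoining exons, holds the second tachykinin end printed above, that of neurokinin A:
Tac1 exon 6, chr6:7559099-7559152: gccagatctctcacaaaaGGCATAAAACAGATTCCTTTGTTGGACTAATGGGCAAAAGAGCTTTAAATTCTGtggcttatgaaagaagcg
Exon 4 lies between the substance P and neurokinin A codons, and the message with and without it reads:
Tac1 with exon 4, chr6:7557216-7557260: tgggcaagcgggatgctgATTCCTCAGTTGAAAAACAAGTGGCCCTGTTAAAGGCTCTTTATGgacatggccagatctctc
Tac1 without exon 4: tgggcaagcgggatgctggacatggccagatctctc
These coordinates are those of GRCm38, from GENCODE M21, as are those of the Cartpt sequences below. The deposited transcript table gives the opposite order. There the transcript with both exons took 63.3% and 60.6% of Tac1 TPM in replicates 1 and 2, the one without exon 4 took 32.8% and 35.04%, and the one without exon 6 took 2.76% and 3.35%. The 3 transcript models are 1230, 691 and 980 nt long and thus differ in more than these exons, and the part of that in the gap between files was not tested.

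In Cartpt, an alternative start of the middle exon adds 39 nt, the difference between the long and short CART precursors. The longer form took 24.5% of reads in the first column (interval 16.5 to 34.0, 102 reads) and 21.4% in the second (15.7 to 28.0, 187 reads). The junction of the shorter form, the more frequent one here, is not in the Ensembl 65 models of the file. The added stretch is in capitals:
Cartpt longer, chr13:99900041-99900079: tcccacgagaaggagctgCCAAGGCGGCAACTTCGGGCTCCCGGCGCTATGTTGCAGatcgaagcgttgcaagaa
Cartpt shorter: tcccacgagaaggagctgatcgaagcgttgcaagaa

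In Scg3, an alternative end of an exon adds 15 nt. The longer form took 38.4% (interval 34.99 to 41.9, 781 reads) and 40.2% (37.5 to 43.0, 1251 reads), and the junction of the shorter, more frequent form was again not in Ensembl 65. The stretches in Tac1, Cartpt and Scg3 are all whole numbers of codons. The columns of the junction file overlapped in their intervals for each of these.

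The other events were in Pnoc, Nmb, Adcyap1, Cck and Ghrh. In Pnoc an exon end 56 nt further on was used in 72.0% and 72.9% of reads against the next shorter form, and a still shorter end, a further 134 nt back, competed with that form at 12 and 15 reads. In Nmb an exon start that adds 5 nt was used in 80.8% and 88.0%, from 52 and 92 reads. An exon end in Adcyap1 that adds 57 nt, not in Ensembl 65, took 14.3% of 147 reads and 7.08% of 226 reads. An end not in Ensembl 65 was used upstream of the coding exons of Cck in 6.47% and 5.62%. In Ghrh the nearer of 2 upstream exon ends took 90% and 75.7%, from only 20 and 37 reads. In Chga a 69 nt exon was included in 95.1% and 95.6%, just outside the bound.

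**Figure D5:**
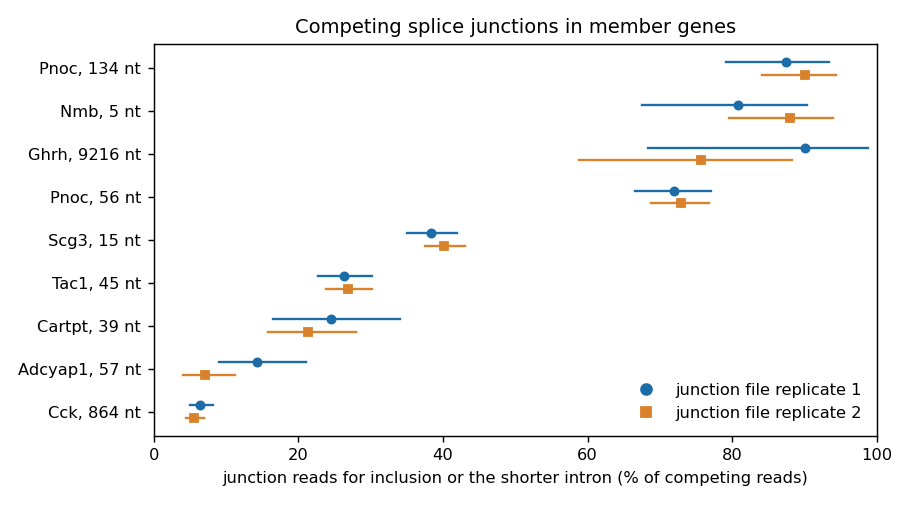
Share of competing junction reads (percent) with 95% counting intervals for the 9 events in 8 members, in the first (circles) and second (squares) column of the junction file; lengths are those of the exon for Tac1 and the distance between competing splice sites for the others. Scg3, Tac1, Cartpt, Adcyap1 and Cck show the longer form in less than 50% of reads in each column.

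Transcript shares were also deposited per library, for 22 members with 1 transcript model and 12 with several. Of the 11 detected members with several models, 6 had at least 2 models at 10% or more of the TPM in both libraries, against 65.2% of the 10306 detected genes with several models. They were Grp, Nmb, Penk, Scg2, Tac1 and Vgf. Penk was split into models at 52.4% and 47.6% in replicate 1 and 59.7% and 40.3% in replicate 2. Scg2 was split at 57.0% and 43.0%, then 54.8% and 45.2%. The leading model took 71.8% and 71.8% in Grp and 72.3% and 71.6% in Vgf. In Nmb the leading models stood at 41.1% and 42.2% in replicate 1 and at 53.7% and 37.2% in replicate 2, so their order changed between the libraries.

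GENCODE M21 places other genes across 8 members, namely Agrp, Grp, Kiss1, Nmb, Pcsk1n, Penk, Pmch and Scg3. On the same strand these are genes at Agrp, Kiss1 and Nmb, and the levels of these members are uncertain to the extent that fragments could be shared. For the others the overlap is on the opposite strand. The libraries are stranded per the labels, but whether strand was used in counting is not stated, so reads of a member and its antisense partner may not have been told apart.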

How the data were processed

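The members and all gene lists were chosen with earlier results of these data known. For each library the authors deposited mm10 tables of genes and transcripts with expected counts, TPM and FPKM, made with GENCODE M4 as their read-me files state. Aligner and quantifier: not given in the sources used here. Deposited mm9 tables hold RPKM per Ensembl 65 gene and read counts per splice junction, whose replicate numbers are not tied to a library. No coordinates were moved between builds.

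Symbols, positions and transcript sequences came from GENCODE M21 (GRCm38) and promoters from RefSeq (GRCm38.p6). Entries that are not genes took 3.62% and 4.01% of expected counts and were left out. Expected counts were rounded and scaled with TMM in edgeR 4.0.16 (R 4.3.3) with a prior count of 1 after filterByExpr. Ratio intervals are exact conditional binomial intervals at 95%. DESeq2 1.42.0 size factors were an alternative. Cassette inclusion is the rounded mean of the flanking junctions, which had to lie within 5-fold of each other. This condition and the 1.3-fold bound were chosen after values were seen. Python 3.11.15, pandas 2.3.3, SciPy 1.17.1, Biopython 1.88 and matplotlib 3.10.9 did the rest.

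The ratio was tested on simulated data for replicate 2 against replicate 1 over 19030 genes, with 200 genes changed. Over the changed genes, the median absolute error of the log2 ratio was 0.0337. The simulated counts held counting error only, so this value leaves out the spread between samples. A gene with no fragment may still reach 3, which is 0.0319 CPM in replicate 1 and 0.0219 CPM in replicate 2 (counting error only). Named genes were all 35 members. From the other lists they were the 3 highest, the lowest and those at least 2-fold apart at a mean TPM of 1 or more. Receptors beside their ligands and some other genes of these lists were named too. The plan named RefSeq proteins for the sequence features; these were not used here, and codons were read from GENCODE transcripts instead. Some items of these lists are not reported here.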

Additional observations from a re-analysis of the deposited data

How the results depend on the processing

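The count of 32 detected members stayed within 1.5 times under thresholds of 0.5 TPM (33) and 5 TPM (22), with FPKM (31), with CPM (27), and with either library left out (32). On the mm9 table of RPKM for Ensembl 65 it was 18 of 34 members listed, where 28.3% of all genes passed. Members' mm10 FPKM was 6.10 times their mm9 RPKM in the median, so that cutoff is stricter; the cause of the gap between the tables was not tested. The 10 highest members stayed the same with FPKM, on mm9 and with either library left out, and 9 of 10 stayed with CPM. No member was 2-fold apart under any of the 8 alternatives for scaling, prior count, unit and filter. The median log2 ratio of -0.02 ran from -0.02 to 0.05 over them, and turned positive with library totals only (0.03) and at a mean TPM of 5 or more (0.05, for 23 members). Library totals moved the median of all genes to 0.05, moved 8 members with many counts (Sst, Cpe, Scg5, Pcsk1n, Scg2, Scg3, Chga and Chgb) by more than their counting error and changed the sign of 2 members, among them Cpe (from -0.03 to 0.02). On log2(TPM + 1) the ratio of Vip fell from 0.74 to 0.24 and that of Hcrt from 0.65 to 0.43. Members with competing splice junctions numbered 8, and 9 and 7 with minimums of 10 and 50 reads; with either column of the junction file left out they ranged from 10 to 13. Without the first column, 13 members passed. Members with at least 2 transcript models at 10% numbered 6, 6 from expected counts, and 6 to 8 with a library left out. No ratio can be had with a library left out. No paired analysis was possible because there is 1 group. Depth limits the lowest members most, since Agrp, Vip, Hcrt, Ghrh, Cort, Oxt, Gnrh1 and Kiss1 rest on fewer than 100 fragments in each library.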

Other observations

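Of 24 peptide genes outside the 35, 6 were detected, or 25% beside 34.2% of all genes, and most of the others had some reads below the threshold. The highest by its mean was Calca, for calcitonin gene-related peptide, at 2.59 and 10.3 TPM in replicates 1 and 2, which was 4.09-fold higher in replicate 2 after scaling and is also one of the sensory ganglion genes. Npff, for a modulator of opioid signalling, stood at 5.56 and 4.92 TPM, and Apln, for apelin, at 5.5 and 4.12 TPM. Nppc (3.91 and 4.99 TPM), Adm (2.54 and 1.91 TPM) and Rln3, the relaxin gene of the brain stem (1.32 and 1.35 TPM), were the others detected. Prlh was listed at 0 in both libraries.

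All 8 genes for enzymes that degrade released peptides were detected and none was 2-fold apart. Thop1 (60.5 and 58.6 TPM), Nln (32.9 and 35.9 TPM) and Ece2 (27.7 and 27.5 TPM) were the highest. Mme, for neprilysin, stood at 2.74 and 2.49 TPM and Dpp4, the lowest, at 1.2 and 1.29 TPM.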
